A study of Mus musculus with 12 samples.

Results

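The 42 genes described here act in mitosis, when a cell condenses, aligns and parts its copied chromosomes, and in cytokinesis, when it splits its cytoplasm. They were chosen by name, as mitotic regulators, spindle and kinetochore proteins, condensin subunits and cytokinesis proteins, with earlier results of these data known. No threshold on a measured value entered the choice, but a rise of many of them is not independent evidence. All 42 were found among the 39210 genes of the deposited table, and all 42 passed the filter on low counts that left 13960 genes for testing. A dividing cell makes most of these transcripts late in its cycle, in G2 and M phase, under factors that bind CCAAT boxes and cell cycle genes homology regions (CHR) in the promoters. Cyclin B with the kinase Cdk1 drives entry into mitosis, the spindle checkpoint holds anaphase back until every kinetochore is attached, and the central spindle then places the contractile ring. In the adult mouse heart most cardiomyocytes have left the cell cycle, so these transcripts are usually scarce and can come from any dividing cell of the tissue.

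RNA came from frozen ventricular tissue of C57BL/6 mice, and 12 strand-specific mRNA libraries fell into 4 groups of 3. Hypoxic males and hypoxic females breathed air whose oxygen was lowered by 1% per day over 14 days to 7% and then held there for 2 weeks. Normoxic males and normoxic females stayed in room air with 20.9% oxygen for 4 weeks. The labels give no age and leave unsaid which ventricle was sampled. They also leave unsaid whether each library is a different mouse, so the p-values here reflect the scatter among these libraries, some of it possibly technical.

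Library totals ran from 14915830 to 19397851 estimated counts, and the 42 genes together took 1194 to 5117 counts of a library. The ventricular cardiomyocyte markers were present in all 12 libraries, with a summed level of 48230 to 71670 CPM, counts scaled to a common library size and corrected for composition. Several libraries stood apart from their group in 1 measure or another. Atrial marker genes averaged 6.45 and 5.98 log2 CPM in male hypoxia libraries 2 and 3, and 2.02 to 3.59 in the remaining 10 libraries. On the first principal component female hypoxia library 1 scored 2.68, and libraries 2 and 3 of that group scored 37.5 and 41.1. Male hypoxia library 1 scored 16.95 there, and libraries 2 and 3 of its group scored 38.9 and 47.2. On the second component female normoxia library 3 scored -69.7, and all the others scored between -14.7 and 20.9. Counts of genes called are given with and without these libraries.

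Most mitosis and cytokinesis genes were higher in hypoxic ventricles. In the comparison averaged over both sexes 35 of the 42 rose and 1, Cenpa, fell at an adjusted p under 0.05, whereas 15% of all genes tested rose and 12.9% fell (27.9% in all). In tissue RNA, fewer cells of a type and less RNA per cell cannot be told apart. The median log2 fold change of the 42 was 1.79, beside -0.0061 over all 13960 genes. Of the 42 genes 34 rose at least 2-fold, a change that 3.32% of all genes tested made. Changes given below with an SE are averaged log2 fold changes of hypoxia over normoxia, with p-values from edgeR's quasi-likelihood test after Benjamini-Hochberg adjustment, unless another contrast or tool is named. The 6 that did not pass were the checkpoint genes Bub1 and Mad2l1, the separase gene Espl1, the kinetochore genes Cenpf and Ndc80, and the midzone motor gene Kif20a. Without male hypoxia libraries 2 and 3 the count was 23 higher and 1 lower, beside 5.41% and 3.42% of all genes tested in that fit, and the median was 1.68. Without those and female normoxia library 3 it was 25 higher and 1 lower, beside 9.13% and 6.83% of all genes tested. Without female hypoxia library 1 and female normoxia library 3, a choice made after seeing the data, it was 35 higher and 1 lower, beside 19.9% and 18.6%. The 12 calls lost without male hypoxia libraries 2 and 3 were those of Aurka, Bub1b, Cep55, Ect2, Kif15, Melk, Ncapg, Nuf2, Nusap1, Pbk, Smc2 and Ttk, with adjusted p-values of 0.0621 to 0.175 there.

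**Figure D1:**
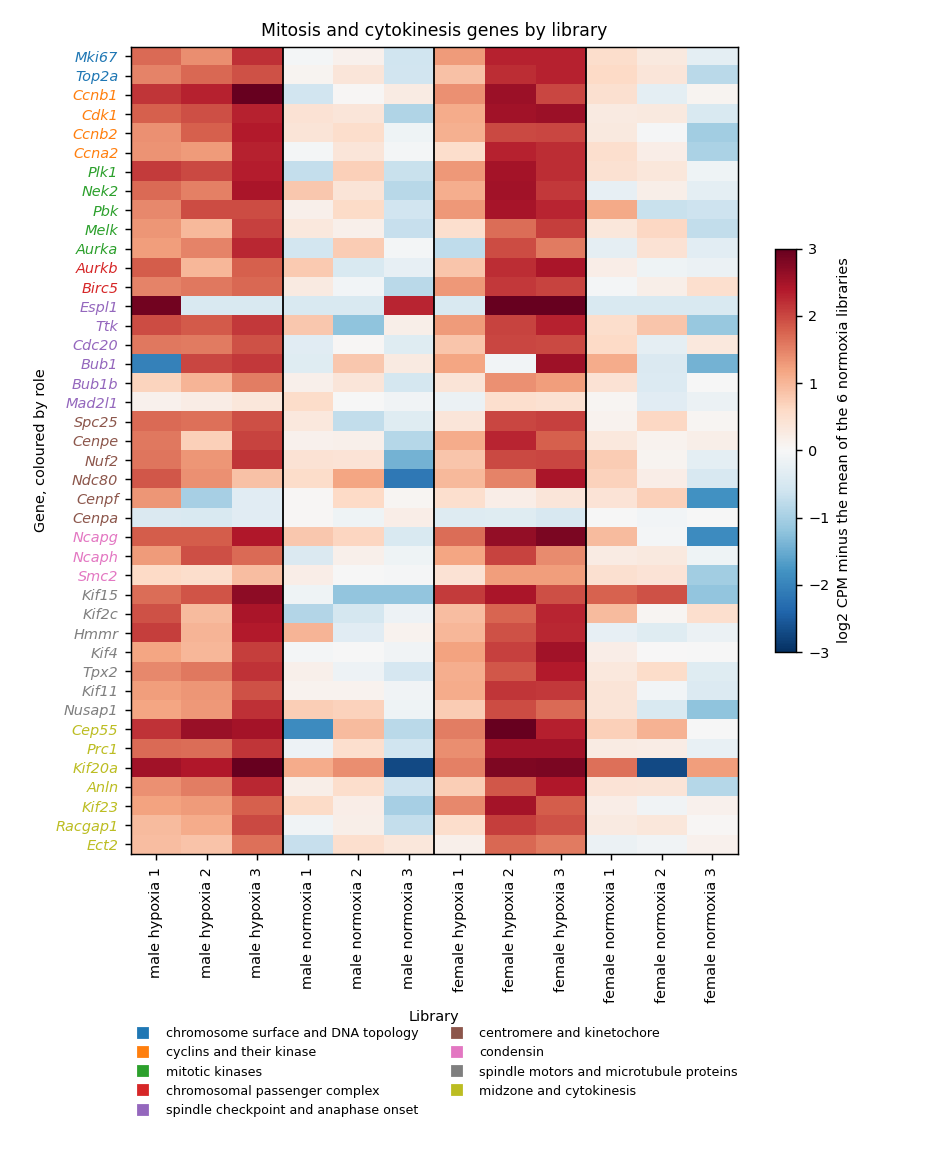
Level of each of the 42 genes in each of the 12 libraries, as log2 CPM minus the gene's mean over the 6 normoxia libraries (colour, limited to -3 and 3), with genes grouped by role and black lines between the groups of 3 libraries. Hypoxia libraries are mostly red, female hypoxia library 1 is the palest of its group, and Cenpa, Cenpf and Mad2l1 show little red.

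The promoters are shown because CCAAT boxes and CHRs are the elements known from genes of G2 and M phase, and those of members that did not rise can be set beside those that did. RefSeq promoter windows (GRCm38.p6, 250 bases before to 50 bases after the annotated start) were matched for 37 of the 42 genes, while Aurkb, Ccna2, Kif20a, Pbk and Tpx2 are named only. The CCAAT box was searched for by the letters CCAAT on the gene's strand and, for the other strand, by the letters ATTGG. The CHR was searched for by the letters TTTGAA, by those of its other strand (TTCAAA), and by the variant TTCGAA that is the same on both strands. No matches shared a base in the members' promoters. In each line below 120 bases are given 5′ to 3′ along the gene, with CCAAT boxes and CHRs in capitals.
Cdk1: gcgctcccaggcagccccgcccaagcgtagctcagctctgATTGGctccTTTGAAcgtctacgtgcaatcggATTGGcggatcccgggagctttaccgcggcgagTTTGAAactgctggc
Ccnb1: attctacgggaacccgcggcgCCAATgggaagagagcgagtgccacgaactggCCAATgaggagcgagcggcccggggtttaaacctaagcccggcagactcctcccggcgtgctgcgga
Cdc20: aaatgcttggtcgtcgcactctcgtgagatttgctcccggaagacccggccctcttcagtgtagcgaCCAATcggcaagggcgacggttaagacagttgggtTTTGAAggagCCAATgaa
Prc1: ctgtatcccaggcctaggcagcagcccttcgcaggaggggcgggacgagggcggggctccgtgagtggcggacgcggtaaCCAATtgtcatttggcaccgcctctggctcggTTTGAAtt
Kif11: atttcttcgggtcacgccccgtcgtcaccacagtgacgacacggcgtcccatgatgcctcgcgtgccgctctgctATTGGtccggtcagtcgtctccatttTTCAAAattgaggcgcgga
Top2a: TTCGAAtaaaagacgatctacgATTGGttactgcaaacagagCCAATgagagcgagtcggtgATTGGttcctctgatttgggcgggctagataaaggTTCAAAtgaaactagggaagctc
Mki67: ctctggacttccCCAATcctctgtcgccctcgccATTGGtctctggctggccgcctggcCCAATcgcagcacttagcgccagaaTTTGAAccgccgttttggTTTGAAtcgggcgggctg
Cenpa: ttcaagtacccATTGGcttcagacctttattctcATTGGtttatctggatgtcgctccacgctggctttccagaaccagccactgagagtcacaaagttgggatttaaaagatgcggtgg
Mad2l1: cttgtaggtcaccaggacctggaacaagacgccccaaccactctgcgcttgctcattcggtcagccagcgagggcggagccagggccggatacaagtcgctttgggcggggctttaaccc
The windows are chr10:69352913-69353032 (minus strand) for Cdk1, chr13:100786487-100786606 (minus strand) for Ccnb1, chr4:118437344-118437463 (minus strand) for Cdc20 and chr7:80294334-80294453 (plus strand) for Prc1. They are chr19:37376262-37376381 (plus strand) for Kif11, chr11:99024190-99024309 (minus strand) for Top2a and chr7:135716460-135716579 (minus strand) for Mki67. For Cenpa and Mad2l1, which are among the members that did not rise, they are chr5:30666766-30666885 (plus strand) for Cenpa and chr6:66535101-66535220 (plus strand) for Mad2l1. All but 2 end at the base before the start: that of Prc1 runs from 117 bases before to 3 bases after it, and that of Mki67 from 200 to 81 bases before it.

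Of the 37 promoters 26 (70.3%) held at least 1 CCAAT box and 28 (75.7%) at least 1 CHR, beside 37.9% and 19.4% of all 27025 RefSeq promoter windows of this length. Both motifs stood in 23 (62.2%), beside 7.70% of all, and neither in 6 (16.2%), beside 50.3%. At least 2 CCAAT boxes were found in 16 (43.2%), beside 12.2%. In 7 promoters (18.9%), beside 1.34% of all, a pair of CCAAT boxes of one orientation started 30 to 36 bases apart, a spacing that was chosen after the sequences were seen. These were the promoters of Nek2, Spc25, Aurka, Ccnb2, Cdk1, Hmmr and Ccnb1. All 7 rose, as did 31 of the 37 matched members. Medians lay close together with and without the motifs. The median averaged log2 fold change was 1.77 in the 23 with both motifs and 1.75 in the other 14, and 1.68 in the 6 with neither motif and 1.85 in the other 31. Cenpa, which fell, held 2 CCAAT boxes and 1 CHR in the whole window, with the CHR after the start and so outside the stretch printed. Mad2l1, which did not pass, held none. Bub1, Cenpf, Espl1 and Ndc80, which did not pass either, each held 1 CHR. At least 1 CHR was found in 23 of the 31 matched members that rose. These are matches of letters in a window, counted without a test.

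**Figure D2:**
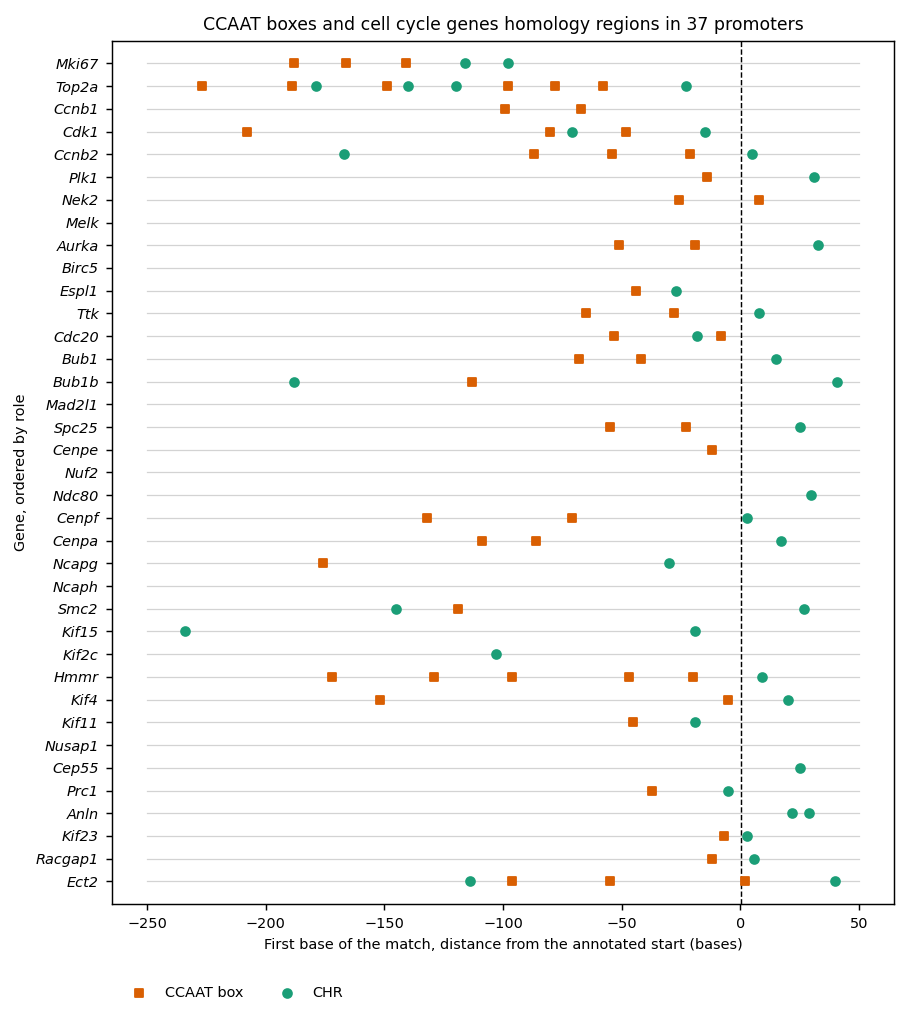
Position of each CCAAT box (orange squares) and CHR (green circles) in the promoter windows of 37 genes, as distance of the first base from the annotated start in bases (dashed line, start), with genes ordered by role. Most symbols lie within 120 bases before or 50 bases after the start, and 6 lines are empty.

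Mki67 encodes Ki-67, which coats mitotic chromosomes and is the standard marker of cycling cells, and Top2a encodes topoisomerase II alpha, which untangles the copied DNA. Mki67 (ENSMUSG00000031004) had 19.4, 15.8 and 27.4 CPM in hypoxic males, against 5.66, 6.53 and 3.89 CPM in normoxic males, and 14.6, 29.9 and 29.98 CPM in hypoxic females, against 8.57, 7.25 and 4.81 CPM in normoxic females. In both sexes every hypoxia library was above every normoxia library, and the averaged log2 fold change was 1.90 ± 0.23 (SE, adjusted p = 0.000475). Top2a (ENSMUSG00000020914) had 9.67, 11.2 and 12.9 CPM in hypoxic males, against 3.58, 4.35 and 2.20 CPM in normoxic males, and 6.22, 16.1 and 17.2 CPM in hypoxic females, against 5.09, 4.33 and 1.85 CPM in normoxic females. It rose by a log2 of 1.77 ± 0.30 (SE, adjusted p = 0.00214), again with no overlap in either sex, and its lowest hypoxia value was that of female hypoxia library 1.

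All 4 genes of the cyclins and their kinase rose, with a median log2 fold change of 1.98. Cdk1 (ENSMUSG00000019942), the kinase of mitotic entry, had 4.83, 5.34 and 7.04 CPM in hypoxic males, against 1.82, 1.74 and 0.648 CPM in normoxic males, and 2.96, 8.05 and 8.38 CPM in hypoxic females, against 1.61, 1.64 and 0.925 CPM in normoxic females. Hypoxia and normoxia libraries did not overlap in either sex, and Cdk1 rose 4.33-fold, a log2 fold change of 2.12 ± 0.32 (SE, adjusted p = 0.00126). Ccnb1 (ENSMUSG00000041431), which encodes cyclin B1, the partner that activates Cdk1, had 2.71, 3.05 and 5.20 CPM in hypoxic males, against 0.314, 0.544 and 0.648 CPM in normoxic males, and 1.54, 3.67 and 2.45 CPM in hypoxic females, against 0.773, 0.409 and 0.555 CPM in normoxic females. It rose 5.62-fold, a log2 fold change of 2.49 ± 0.31 (SE, adjusted p = 0.000492), the largest rise in this group. The second B-type cyclin gene Ccnb2 rose by 1.85 ± 0.30 (SE, adjusted p = 0.00167), and Ccna2, whose cyclin A2 acts in S phase and early mitosis, by 1.78 ± 0.35 (SE, adjusted p = 0.00442). The exons of Ccna2 overlap those of Exosc9 on the other strand in the annotation used for symbols. In all, 9 members overlap a gene on the opposite strand there (Ccna2, Cdc20, Kif20a, Kif4, Ncapg, Nek2, Nusap1, Plk1 and Prc1), and the strand setting of the quantification is not given in the sources used here, so their levels are uncertain to that extent.

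The 5 mitotic kinase genes rose as well, with a median of 1.99. Plk1 (ENSMUSG00000030867), a kinase of centrosome maturation and mitotic exit, had 2.45, 2.24 and 2.96 CPM in hypoxic males, against 0.252, 0.870 and 0.259 CPM in normoxic males, and 1.36, 3.29 and 2.65 CPM in hypoxic females, against 0.709, 0.643 and 0.432 CPM in normoxic females. Every hypoxia value exceeded every normoxia value of both sexes, and the log2 fold change was 2.22 ± 0.34 (SE, adjusted p = 0.00142). Nek2, a centrosomal kinase gene, rose by 2.08 ± 0.37 (SE, adjusted p = 0.00272). Pbk and Melk encode kinases found mainly in dividing cells and rose by 1.99 ± 0.42 (SE, adjusted p = 0.00576) and 1.67 ± 0.41 (SE, adjusted p = 0.0124). Aurka, whose kinase Aurora A builds the spindle poles, rose by 1.54 ± 0.45 (SE, adjusted p = 0.0252) from low levels of 0.474 to 4.69 CPM in hypoxia libraries and 0.566 to 1.58 CPM in normoxia libraries. Its groups overlapped in females, where female hypoxia library 1 held the 0.474 CPM. That call was lost when any 1 of 6 libraries was left out (male hypoxia 3, male normoxia 1, male normoxia 3, female hypoxia 2, female hypoxia 3 or female normoxia 1), with adjusted p-values of 0.0580 to 0.0703, and by limma voom (adjusted p = 0.0728). With offsets from the deposited transcript lengths the call of Pbk was lost (log2 1.42, adjusted p = 0.0646).

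Both members of the chromosomal passenger complex, which corrects faulty attachments and later acts at the midzone, rose. Aurkb (ENSMUSG00000020897), its kinase Aurora B, had 2.78, 1.52 and 2.75 CPM in hypoxic males, against 1.32, 0.490 and 0.583 CPM in normoxic males, and 1.36, 3.73 and 4.42 CPM in hypoxic females, against 0.838, 0.643 and 0.617 CPM in normoxic females. The ranges of hypoxia and normoxia did not overlap within either sex, although male hypoxia library 2 lay close to male normoxia library 1. Its log2 fold change was 1.86 ± 0.35 (SE, adjusted p = 0.00356), and that of Birc5, which encodes the subunit survivin, was 1.80 ± 0.24 (SE, adjusted p = 0.000699).

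Of the 6 genes of the spindle checkpoint and of anaphase onset 3 rose. Cdc20 (ENSMUSG00000006398), the activator of the anaphase-promoting complex that the checkpoint restrains, had 5.76, 5.72 and 7.29 CPM in hypoxic males, against 1.45, 1.90 and 1.43 CPM in normoxic males, and 3.37, 7.72 and 7.6 CPM in hypoxic females, against 2.83, 1.52 and 2.34 CPM in normoxic females. No hypoxia library overlapped the normoxia libraries of its sex, and the rise was 1.72 ± 0.23 (SE, adjusted p = 0.000784) on the log2 scale. Bub1b (ENSMUSG00000040084), which encodes the checkpoint protein BubR1, had 2.85, 3.67 and 5.304 CPM in hypoxic males, against 1.95, 2.29 and 1.17 CPM in normoxic males, and 2.31, 4.66 and 4.32 CPM in hypoxic females, against 2.38, 1.29 and 1.73 CPM in normoxic females. Its rise was smaller, 1.10 ± 0.26 (SE, adjusted p = 0.0106), and in females library 1 of hypoxia (2.31 CPM) lay below library 1 of normoxia (2.38 CPM). Ttk, the gene of the checkpoint kinase Mps1, rose by 2.03 ± 0.49 (SE, adjusted p = 0.0109), a call that was lost with transcript length offsets (log2 1.22, adjusted p = 0.217).

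The other 3 checkpoint and anaphase genes did not pass, each with its own pattern of values. Mad2l1 (ENSMUSG00000029910), the checkpoint protein Mad2, had 3.97, 4.24 and 4.64 CPM in hypoxic males, against 5.41, 3.59 and 3.37 CPM in normoxic males, and 3.20, 5.21 and 4.997 CPM in hypoxic females, against 3.80, 2.87 and 3.21 CPM in normoxic females. The groups overlapped in both sexes, and the log2 fold change was 0.25 ± 0.17 (SE, adjusted p = 0.303), turning to -0.41 with transcript length offsets. Bub1 (ENSMUSG00000027379), a kinetochore kinase, had 0, 1.76 and 1.94 CPM in hypoxic males, against 0.252, 0.707 and 0.453 CPM in normoxic males, and 0.947, 0.329 and 2.60 CPM in hypoxic females, against 0.902, 0.234 and 0.0617 CPM in normoxic females. Male hypoxia library 1 was at 0 counts, which allows up to 0.199 CPM (3 counts), and the log2 fold change was 1.54 ± 0.80 (SE, adjusted p = 0.168). Without male hypoxia libraries 2 and 3, where that library alone stood for hypoxic males, it was -2.16 (adjusted p = 0.437). Espl1 (ENSMUSG00000058290), separase, the protease that cuts cohesin at anaphase, had 1.06, 0 and 0 CPM in hypoxic males, against 0, 0 and 0.648 CPM in normoxic males, and 0, 3.29 and 4.32 CPM in hypoxic females, against 0, 0 and 0 CPM in normoxic females. Its counts appeared in only 4 of 12 libraries, with a fitted averaged log2 fold change of 4.55 ± 1.92 (SE, adjusted p = 0.107), the largest of the 42 and one that depends on the prior count of the fit. Against the 3 normoxic female libraries, all at 0, the hypoxic female mean of 2.54 CPM was at least 41.3-fold higher than the level that 3 counts over that group allow (0.0613 CPM). Setting Espl1 to that bound could not move the median over the 42 genes (1.79), since Espl1 stays above the middle of the list.

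Among the 6 centromere and kinetochore genes 3 rose and 1 fell. Cenpe, a kinetochore motor gene, rose by 1.74 ± 0.31 (SE, adjusted p = 0.00257), and Nuf2 and Spc25, subunits of the Ndc80 complex that grips microtubules, rose by 1.69 ± 0.38 (SE, adjusted p = 0.00834) and 1.85 ± 0.35 (SE, adjusted p = 0.00359). Ndc80 itself (ENSMUSG00000024056) had 1.72, 1.19 and 0.816 CPM in hypoxic males, against 0.629, 1.03 and 0 CPM in normoxic males, and 0.888, 1.31 and 2.65 CPM in hypoxic females, against 0.709, 0.468 and 0.247 CPM in normoxic females. Its female groups did not overlap but its male groups did. With a log2 fold change of 1.44 ± 0.57 (SE, adjusted p = 0.0802) it did not pass, although it did by DESeq2 (adjusted p = 0.0338) and by limma on log2(TPM + 0.1) (adjusted p = 0.0164).

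Cenpa (ENSMUSG00000029177), the histone H3 variant that marks the centromere, was the member that fell. It had 21.7, 21.2 and 23.0 CPM in hypoxic males, against 29.8, 26.6 and 33.7 CPM in normoxic males, and 22.3, 22.6 and 20.9 CPM in hypoxic females, against 28.9, 27.8 and 28.7 CPM in normoxic females. In both sexes all 3 hypoxia libraries lay below all 3 normoxia libraries, which was the case in both sexes for 6.92% of all genes tested, and the log2 fold change was -0.41 ± 0.07 (SE, adjusted p = 0.00171). In TPM, which divides by transcript length, it had 16.8, 21.7 and 19.2 TPM in hypoxic males, against 18.98, 19.96 and 21.6 TPM in normoxic males, and 16.9, 18.7 and 17.9 TPM in hypoxic females, against 21.2, 19.8 and 19.5 TPM in normoxic females. These values overlapped in males, the log2 difference was -0.13 and the fall did not pass (limma on log2(TPM + 0.1), adjusted p = 0.253). That fit also lacked the composition correction of the CPM values. With transcript length offsets in edgeR the fall of Cenpa still passed, and its deposited transcript length varied only 1.13-fold between libraries. Cenpf (ENSMUSG00000026605), a large kinetochore and nuclear matrix protein, had 41.6, 8.29 and 13.2 CPM in hypoxic males, against 17.1, 25.1 and 17.4 CPM in normoxic males, and 23.7, 19.1 and 21.4 CPM in hypoxic females, against 22.4, 27.2 and 4.69 CPM in normoxic females. Hypoxia and normoxia overlapped in both sexes, male hypoxia library 1 held the highest value and female normoxia library 3 the lowest, and the log2 fold change was 0.15 ± 0.43 (SE, adjusted p = 0.81). Without male hypoxia library 1 it was -0.33, without female normoxia library 3 it was -0.08, and without female hypoxia library 1 and female normoxia library 3 it was -0.11. The deposited average transcript length of Cenpf ran from 1621 to 10666 bases over the libraries, whereas that of Mki67 was 9811 bases in each.

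The 3 condensin genes, whose products compact mitotic chromosomes, all rose. Ncaph rose by 1.69 ± 0.22 (SE, adjusted p = 0.00058). Ncapg (ENSMUSG00000015880) had 1.39, 1.38 and 2.14 CPM in hypoxic males, against 0.629, 0.544 and 0.194 CPM in normoxic males, and 1.24, 2.52 and 2.92 CPM in hypoxic females, against 0.709, 0.292 and 0 CPM in normoxic females. It rose by 2.28 ± 0.53 (SE, adjusted p = 0.00909), with no overlap within either sex, but its deposited transcript length varied 6.06-fold between libraries and the call was lost with length offsets (log2 1.51, adjusted p = 0.201). Smc2 (ENSMUSG00000028312), the core ATPase of both condensins, had 4.50, 4.24 and 5.66 CPM in hypoxic males, against 3.40, 2.88 and 2.85 CPM in normoxic males, and 3.97, 7.12 and 7.08 CPM in hypoxic females, against 4.12, 3.92 and 1.36 CPM in normoxic females. Its rise of 0.80 ± 0.26 (SE, adjusted p = 0.0365) was the smallest among the members that rose. Female hypoxia library 1 (3.97 CPM) lay below female normoxia library 1 (4.12 CPM). The Smc2 call was lost without any 1 of 8 libraries (all 3 of hypoxic males, all 3 of normoxic males and female hypoxia libraries 2 and 3), with adjusted p-values of 0.0515 to 0.0888, with length offsets (adjusted p = 0.0611) and with the replicate number as a block (adjusted p = 0.0567).

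All 7 genes of spindle motors and microtubule proteins rose, with a median of 1.86. Kif11 (ENSMUSG00000012443), the motor Eg5 that pushes the spindle poles apart, had 4.37, 4.58 and 6.88 CPM in hypoxic males, against 1.89, 1.90 and 1.62 CPM in normoxic males, and 3.91, 8.16 and 8.02 CPM in hypoxic females, against 2.32, 1.64 and 1.29 CPM in normoxic females. No libraries overlapped within a sex, and the rise was 1.74 ± 0.23 (SE, adjusted p = 0.000682). Kif2c (ENSMUSG00000028678), a microtubule depolymerase at centromeres, had 1.99, 0.953 and 2.91 CPM in hypoxic males, against 0.189, 0.272 and 0.389 CPM in normoxic males, and 0.947, 1.75 and 2.60 CPM in hypoxic females, against 0.966, 0.468 and 0.678 CPM in normoxic females. It rose by 2.04 ± 0.37 (SE, adjusted p = 0.00312) and overlapped in females, where hypoxia library 1 (0.947 CPM) was just below normoxia library 1 (0.966 CPM). Kif15, a motor that can assist Eg5, had the largest fitted rise of any member that passed, 2.72 ± 0.73 (SE, adjusted p = 0.0177). Its levels were 0.728 to 1.58 CPM in hypoxia libraries and 0 to 0.877 CPM in normoxia libraries. Normoxic males had 0.126, 0 and 0 CPM of Kif15, so the size of its rise depends in part on the prior count of the fit. The chromosome motor gene Kif4 rose by 1.86 ± 0.27 (SE, adjusted p = 0.00107), and Tpx2, an activator of Aurora A on the spindle, by 1.85 ± 0.26 (SE, adjusted p = 0.000948). The microtubule protein genes Nusap1 and Hmmr rose by 1.60 ± 0.35 (SE, adjusted p = 0.00702) and 1.97 ± 0.35 (SE, adjusted p = 0.00275).

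Of the 7 midzone and cytokinesis genes 6 rose, with a median of 1.76 over all 7. Prc1 (ENSMUSG00000038943), which bundles the antiparallel microtubules of the central spindle, had 7.08, 7.01 and 9.69 CPM in hypoxic males, against 1.89, 3.05 and 1.36 CPM in normoxic males, and 5.74, 12.6 and 12.7 CPM in hypoxic females, against 2.51, 2.46 and 1.79 CPM in normoxic females. Its groups did not overlap in either sex, and the log2 fold change was 2.05 ± 0.25 (SE, adjusted p = 0.000474). Anln (ENSMUSG00000036777), anillin, the scaffold of the contractile ring, had 4.50, 5.05 and 8.47 CPM in hypoxic males, against 1.89, 2.45 and 1.04 CPM in normoxic males, and 2.84, 6.36 and 9.27 CPM in hypoxic females, against 2.25, 2.22 and 0.863 CPM in normoxic females, a rise of 1.76 ± 0.35 (SE, adjusted p = 0.00439) with no overlap. Ect2 (ENSMUSG00000027699), the exchange factor that activates RhoA at the cell equator, had 1.79, 1.72 and 3.06 CPM in hypoxic males, against 0.503, 1.31 and 1.17 CPM in normoxic males, and 1.01, 3.18 and 2.86 CPM in hypoxic females, against 0.773, 0.819 and 0.987 CPM in normoxic females. Its rise was 1.29 ± 0.33 (SE, adjusted p = 0.0152), and the female groups came close, with 1.01 CPM in female hypoxia library 1 and 0.987 CPM in female normoxia library 3. The Ect2 call was lost with length offsets (log2 1.01, adjusted p = 0.103). Racgap1 and Kif23, the pair that forms centralspindlin, rose by 1.56 ± 0.30 (SE, adjusted p = 0.00362) and 1.72 ± 0.28 (SE, adjusted p = 0.00186). Cep55 (ENSMUSG00000024989), which recruits the abscission machinery to the midbody, had 1.79, 2.43 and 2.29 CPM in hypoxic males, against 0, 0.707 and 0.130 CPM in normoxic males, and 1.12, 3.83 and 2.03 CPM in hypoxic females, against 0.580, 0.760 and 0.308 CPM in normoxic females. It rose by 2.47 ± 0.55 (SE, adjusted p = 0.00754) with no overlap, with normoxia values from 0 to 0.760 CPM. Kif20a (ENSMUSG00000003779), a midzone motor that brings Aurora B to the central spindle, had 4.17, 3.86 and 6.88 CPM in hypoxic males, against 1.51, 1.85 and 0 CPM in normoxic males, and 2.01, 5.10 and 5.21 CPM in hypoxic females, against 2.25, 0 and 1.67 CPM in normoxic females. The male groups did not overlap, while female hypoxia library 1 lay below female normoxia library 1. Male normoxia library 3 and female normoxia library 2 were at 0, which allows up to 0.194 and 0.175 CPM. With a log2 fold change of 1.89 ± 0.72 (SE, adjusted p = 0.07) Kif20a did not pass, whereas it did by limma voom (log2 3.20, adjusted p = 0.0324) and by limma on log2(TPM + 0.1) (log2 2.05, adjusted p = 0.0102).

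**Figure D3:**
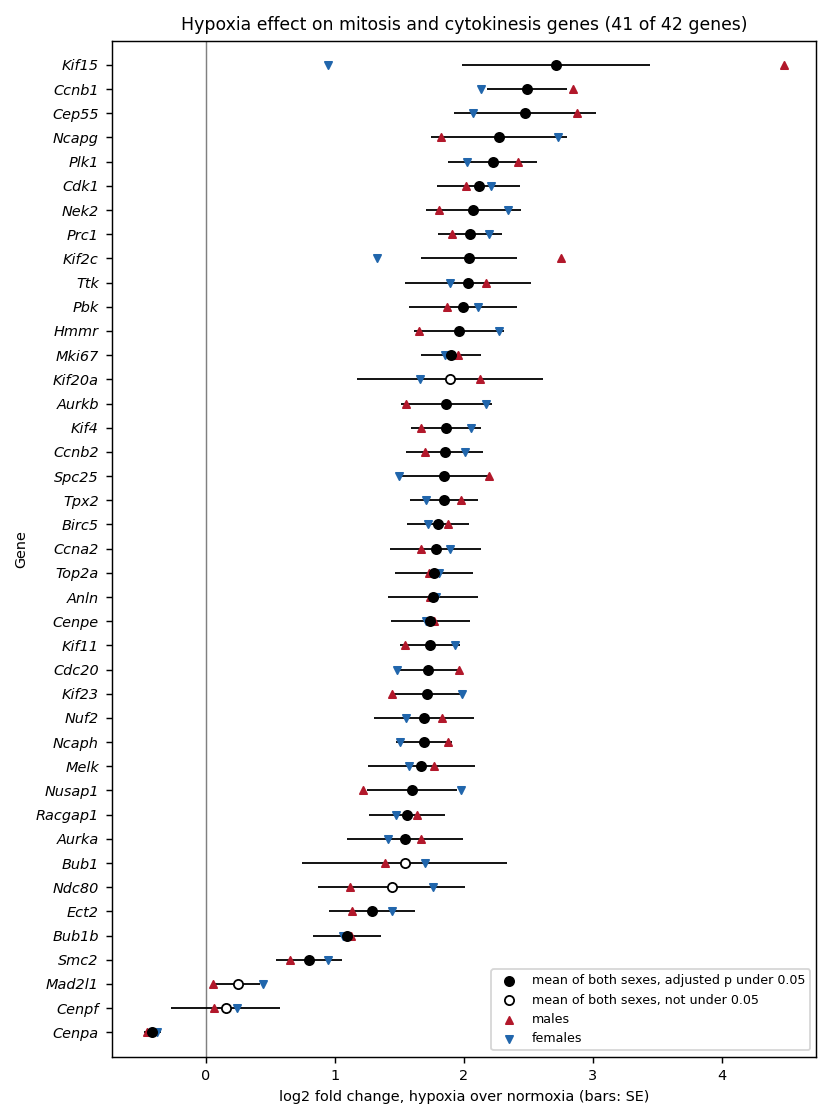
Averaged log2 fold change of hypoxia over normoxia for 41 genes (circles with SE, filled where the adjusted p was under 0.05), with the female (blue) and male (red) log2 fold changes. Espl1, with a fitted value of 4.55, is left out, most circles lie between 1 and 2.5, and Mad2l1, Cenpf and Cenpa lie near or below 0.

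The members also differed in how abundant they were in normoxia, measured in TPM, which compares genes per transcript length. In normoxia 39 of the 42 had a mean under 1 TPM over the 6 libraries, from 0.0091 TPM for Espl1 to 0.731 TPM for Cdk1. The other 3 were Cenpa, Cenpf and Mad2l1, the only members over 1 TPM, and these 3 had the smallest averaged log2 fold changes. Cenpa averaged 18.5 TPM over the 6 hypoxia libraries and 20.2 TPM over the 6 normoxia libraries. Cenpf averaged 5.83 TPM in hypoxia and 3.76 TPM in normoxia, and Mad2l1 2.74 TPM in hypoxia and 2.90 TPM in normoxia. In hypoxia 21 of the 42 were still under 1 TPM, and the highest of the 39 was Cdk1 with 4.60 TPM. Summed over all 42 genes, abundance was 71.1, 74.8 and 80.5 TPM in hypoxic males, against 35.1, 37.4 and 41.1 TPM in normoxic males. It was 47.3, 84.5 and 97.3 TPM in hypoxic females, against 45.5, 39.5 and 29.9 TPM in normoxic females. The groups did not overlap in either sex, but female hypoxia library 1 lay close to female normoxia library 1. Cenpa, Cenpf and Mad2l1 weigh heavily in these sums. Over the other 39 genes the sum was 36.6, 48.9 and 58.6 TPM in hypoxic males, against 10.8, 13.6 and 7.69 TPM in normoxic males. It was 24.4, 60.2 and 64.3 TPM in hypoxic females, against 15.1, 11.9 and 8.41 TPM in normoxic females. The values rest on few reads, with 17 zeros in 7 genes, 4 in hypoxia libraries and 13 in normoxia libraries.

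**Figure D4:**
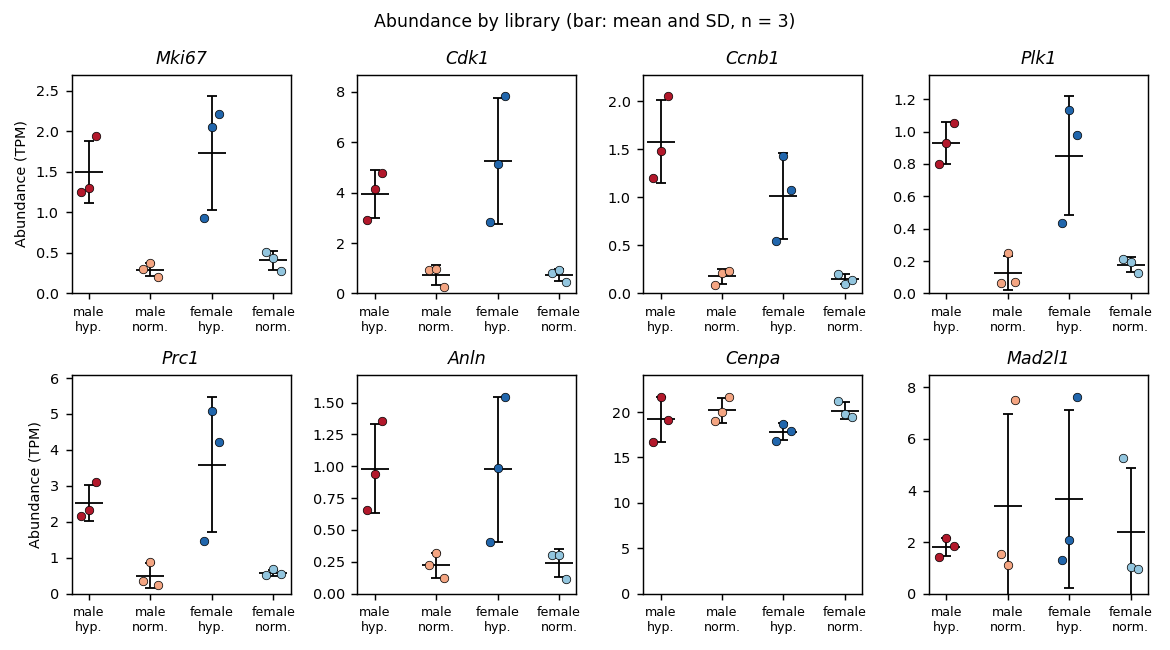
Abundance in TPM of 8 members in each library (points) with the mean and SD of each group of 3 (bars), from hypoxic males to normoxic females, each panel on its own scale from 0. Mki67, Cdk1, Ccnb1, Plk1, Prc1 and Anln are higher in hypoxia in both sexes, Cenpa lies between 16.8 and 21.7 TPM in all groups, and Mad2l1 has 3 libraries over 5 TPM in 3 different groups, with SD bars that run past 0 in both normoxia groups.

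The male and female effects were then taken apart. In males 25 of the 42 rose and 1 fell, beside 8.47% and 7.10% of all genes tested (15.6% in all), with a median of 1.75. In females 20 rose and 1 fell, beside 3.97% and 2.02% (5.99% in all), with a median of 1.78. Both sexes called 19 of the same genes, with 7 more that passed in males and 2 more that passed in females. In 36 genes every male hypoxia library was above every male normoxia library, beside 21.5% of all genes tested. The same held for 30 genes in females, beside 13.2%, and for 29 in both sexes, beside 7.79%. Cenpa was the only member with the opposite order in both.

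These counts per sex depended on single libraries, while the averaged count stayed at 34 to 36 genes called whichever library was left out. The number of genes called over the whole table moved with them. For males the total of 26 members stood beside 2174 called genes in all. It became 17 without male hypoxia library 2 (994 in all), 11 without male hypoxia library 3 (877), 17 without male normoxia library 1 (953) and 12 without male normoxia library 3 (1070). Without male hypoxia libraries 2 and 3 together it was 0, beside 66 in all, where 20 members had an unadjusted p under 0.05, the median was 1.57, and the single male hypoxia library took its spread from the remaining groups.

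For females the total of 21 members stood beside 836 called genes in all. It became 32 without female hypoxia library 1 (2081 in all), and 0 without female hypoxia library 2 (75) or library 3 (55). In those fits with 0 calls 32 and 31 members had an unadjusted p under 0.05, and the median log2 fold changes were 1.64 and 1.61. It became 6 without female normoxia library 1 (233 in all), 1 without library 2 (147) and 13 without library 3 (997). A fit of the female libraries alone called 0 members by edgeR, beside 40 genes in all, with 34 members at an unadjusted p under 0.05 and a median of 1.77. DESeq2 on all libraries called 30 members in females, beside 1693 genes in all, and 33 in males, beside 2905.

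No member passed a test of the difference in response between the sexes. The female effect minus the male effect passed for 0 of 42 genes by edgeR, DESeq2 and limma voom. These tools called 1 (0.00716% of all genes tested), 65 and 2 genes in all. By edgeR 1 member, Kif15, had an unadjusted p under 0.05. Kif15 had a log2 fold change of 0.95 ± 0.84 (SE, adjusted p = 0.515) in females and 4.48 ± 1.17 (SE, adjusted p = 0.026) in males, a difference of -3.54 ± 1.47 (SE, adjusted p = 0.728). The difference was -0.10 ± 0.45 for Mki67, 0.19 ± 0.63 for Cdk1, -0.72 ± 0.61 for Ccnb1 and 0.29 ± 0.49 for Prc1 (SE). Hypoxic females against hypoxic males gave 0 calls among the members by edgeR, DESeq2 and limma voom, beside 21 (0.15%), 184 and 21 genes in all. By edgeR 0 members had an unadjusted p under 0.05. Normoxic females against normoxic males gave 0 calls among the members by the same tools, beside 10 (0.0716%), 58 and 8 genes in all. By edgeR 2 members (Kif15 and Kif2c) had an unadjusted p under 0.05.

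The level of the members as a group differed between libraries of the same group. Their mean log2 CPM was 1.64, 1.56 and 2.12 in hypoxic males, against 0.32, 0.43 and -0.18 in normoxic males. In hypoxic females it was 1.11, 2.23 and 2.27, against 0.65, 0.32 and -0.15 in normoxic females. Female hypoxia library 1 was the lowest of the 6 hypoxia libraries for 33 of the 42 genes, and male hypoxia library 3 was the highest of its group for 35. The lowest of the hypoxic males was library 2 for 22 genes and library 1 for 19. Female normoxia library 3 was the lowest of its group for 28 genes and male normoxia library 3 for 26. Male hypoxia library 1, with an atrial marker mean of 3.08 log2 CPM beside 6.45 and 5.98 in the other hypoxic males, had 1.64 for the mitosis genes, above all 6 normoxia libraries. That is 1 library, and the part of atrial tissue in the result was not tested. Haemoglobin transcripts made up 0.721% to 1.39% of counts in hypoxia libraries and 0.146% to 0.210% in normoxia libraries.

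Averaged over both sexes, where 15% of all genes tested rose, markers of several cell types that could divide in the heart moved in the same direction. Of 14 endothelial markers 11 rose (median log2 fold change 0.58), with a summed level of 1843 to 2271 CPM in hypoxic males, against 1175 to 1402 CPM in normoxic males, and 1861 to 2443 CPM in hypoxic females, against 1299 to 1691 CPM in normoxic females. Of 12 fibroblast markers 8 rose (median 0.83), with 1562 to 2336 CPM in hypoxic males, against 951 to 1007 CPM in normoxic males, and 1019 to 2003 CPM in hypoxic females, against 816.5 to 1219 CPM in normoxic females. Female hypoxia library 1 held the lowest fibroblast sum among the hypoxia libraries, as it did for the mitosis genes, and the highest cardiomyocyte sum of all 12. Of 15 macrophage and monocyte markers 6 rose (median 0.42), with 373 to 449 CPM in hypoxic males, against 232 to 310 CPM in normoxic males, and 276 to 395 CPM in hypoxic females, against 244 to 365 CPM in normoxic females. These medians are smaller than the 1.79 of the mitosis genes. In males 7 endothelial, 9 fibroblast and 4 macrophage markers rose (medians 0.71, 0.88 and 0.70), beside 8.47% of all genes tested. Among females the counts were 6, 3 and 1 (medians 0.52, 0.63 and 0.19), beside 3.97%. The part of these cell types in the result was not tested.

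Red cell genes rose too, while defining markers of their nucleated precursors were at or near 0. In the averaged comparison 15% of all genes tested rose and 12.9% fell. Of 10 tested erythroid markers 8 rose (median 2.43), with summed levels of 9946 to 11960 CPM in hypoxic males, against 1654 to 2261 CPM in normoxic males, and 6767 to 11300 CPM in hypoxic females, against 1609 to 2063 CPM in normoxic females. The erythroid transcription factor genes Gata1 and Klf1 were at 0 in 10 and 4 of 12 libraries and never exceeded 1 and 3 counts, and Rhag and Hemgn never exceeded 1 and 3 counts. Among the marrow myeloid markers 0 of 3 tested passed in the averaged comparison. In males 1, S100a8, rose (adjusted p = 0.0425) and the median of the 3 was 1.86, whereas in females 0 passed and the median was -0.90. Mpo and Elane were at 0 in 10 and 11 libraries with at most 1 count, and the sum was 8.01 to 22.8 CPM in hypoxic males, against 2.39 to 6.41 CPM in normoxic males, and 2.55 to 3.89 CPM in hypoxic females, against 2.13 to 7.37 CPM in normoxic females. Of 5 tested lymphocyte markers 0 rose and 2 fell in the averaged comparison, 2 fell in males and 0 in females, and 0 of 7 fell without male hypoxia libraries 2 and 3. Their sum was 1.81 to 3.11 CPM in hypoxic males, against 5.004 to 7.12 CPM in normoxic males, and 4.03 to 5.93 CPM in hypoxic females, against 3.95 to 7.31 CPM in normoxic females.

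In the remaining marker lists 5 of 10 pericyte and smooth muscle genes rose and 1 fell (median 0.48), and 0 of 10 ventricular cardiomyocyte genes rose and 2 fell (median -0.18). Of 5 atrial markers 4 rose and 1 fell, of 4 adipocyte markers 1 rose, and of 3 mesothelial markers 2 rose. Over all genes tested 15% rose and 12.9% fell. Without male hypoxia libraries 2 and 3 the endothelial, fibroblast, macrophage and erythroid medians were 0.50, 0.69, 0.48 and 2.45. The pericyte and smooth muscle, atrial, adipocyte and ventricular cardiomyocyte medians were 0.29, 1.03, 0.75 and -0.11 there, beside -0.0248 over all genes tested. Without female hypoxia library 1 and female normoxia library 3, 19.9% of all genes tested rose and 18.6% fell. The markers that rose there were 12 of 14 endothelial, 9 of 12 fibroblast, 9 of 15 macrophage and 9 of 11 erythroid. So did 5 of 10 pericyte and smooth muscle, 3 of 6 atrial and 3 of 6 adipocyte markers. In that fit 6 of 10 ventricular cardiomyocyte genes fell (median -0.29), as did 2 of 7 lymphocyte genes. The erythroid, the atrial, and the pericyte and smooth muscle lists had 1 fall each.

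Genes outside the 42 that act in the same steps moved less uniformly. Their averaged counts stand beside 15% of all genes tested that rose and 12.9% that fell. The list nearest to them, other mitotic motors and spindle proteins, had 12 of 20 members higher and 0 lower (median 1.33). It was led by Aspm, a spindle pole protein gene at 1.95 ± 0.26 (SE, adjusted p = 0.000682), Kif22, a chromosome motor at 1.91 ± 0.32 (SE, adjusted p = 0.00213), Ckap2 at 2.03 ± 0.36 (SE, adjusted p = 0.00278) and Kifc1, a minus-end motor at 1.64 ± 0.29 (SE, adjusted p = 0.00279). Of 28 other centromere and kinetochore genes 9 rose and 2 fell (median 0.37). Knl1, the scaffold of the outer kinetochore, rose by 1.61 ± 0.32 (SE, adjusted p = 0.00439), followed by p-value by Zw10 (0.33), Nsl1 (1.55) and Cenpi (0.95), while Cenpq and Cenpx fell by 0.58 and 0.20 on the log2 scale. The loading factor of Cenpa, Hjurp, rose by a log2 of 0.41 ± 0.13 (SE, adjusted p = 0.0341), named here after its value was seen because Cenpa fell.

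The list of passenger, cohesin, condensin and separation proteins had 7 of 21 members higher and 2 lower (median 0.17), beside 15% and 12.9% of all genes tested. Cdca8, the passenger subunit borealin, rose by 2.00 ± 0.32 (SE, adjusted p = 0.00162), Cdca5, which protects cohesin, by 1.92 ± 0.36 (SE, adjusted p = 0.00356), and Sgo1, the gene of a shugoshin, by 1.78 ± 0.37 (SE, adjusted p = 0.00538). Pttg1, which encodes the separase inhibitor securin, fell at -0.77 ± 0.13 (SE, adjusted p = 0.00187), and so did Sgo2a, the second shugoshin gene at -0.74 ± 0.14 (SE, adjusted p = 0.00349). Of 21 genes of the anaphase-promoting complex and its partners 2 rose and 2 fell (median -0.05), no larger a share than over all genes tested (15% and 12.9%). The E2 enzyme gene Ube2c rose by 1.54 ± 0.21 (SE, adjusted p = 0.000789) and Mad1l1 by 0.31, whereas the subunit genes Cdc23 and Anapc13 fell by 0.42 and 0.30. Cdc20 and Ube2c rose while 0 of the listed core subunit genes did.

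Among 19 genes of mitotic entry and exit control 6 rose and 4 fell (median 0.34), beside 15% and 12.9% of all genes tested. Cks2, a binding partner of Cdk1, rose by 2.06 ± 0.32 (SE, adjusted p = 0.00153), Ccnf, cyclin F, by 2.04 ± 0.37 (SE, adjusted p = 0.0029), and the phosphatase gene Cdc25b, which activates Cdk1, by 0.89 ± 0.18 (SE, adjusted p = 0.00529). Arpp19, Ccnh, Cdk7 and Cdc14b fell by 0.31, 0.48, 0.40 and 0.41. Of 23 general cytokinesis and abscission genes, which also serve cells that do not divide, 8 rose and 0 fell (median 0.20), led by Arhgef2 (0.68), the myosin heavy chain gene Myh9 (0.66), Septin11 (0.80) and the myosin light chain gene Myl9 (1.15).

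Of 18 transcriptional regulators of cell cycle genes 6 rose and 1 fell (median 0.13), beside 15% and 12.9% of all genes tested. Foxm1, the forkhead factor that acts on G2 and M phase promoters, rose by 1.86 ± 0.34 (SE, adjusted p = 0.00308), and E2f1, an activator of S phase genes, by 1.17 ± 0.16 (SE, adjusted p = 0.000867). E2f7 and Mybl2, which joins the MuvB complex at CHR promoters, rose by 1.38 ± 0.27 (SE, adjusted p = 0.00439) and 1.39 ± 0.36 (SE, adjusted p = 0.015), and E2f6 fell by 0.44. Of 30 replication and S phase genes 6 rose and 0 fell (median 0.28), beside 15% and 12.9% of all genes tested, led by Clspn at 1.89 ± 0.37 (SE, adjusted p = 0.00441), Mcm10 (1.39), Uhrf1 (1.08) and Rrm2 (0.94). Of 13 cell cycle inhibitors and D cyclins 2 rose and 1 fell. Trp53 rose by 0.63 ± 0.14 (SE, adjusted p = 0.00817) and Cdkn2b by 1.17 ± 0.39 (SE, adjusted p = 0.0427), and Cdkn1c had a log2 fold change of -0.41 ± 0.14 (SE, adjusted p = 0.0449). Without male hypoxia libraries 2 and 3 the numbers that rose were 8 of 21 for the motors, 1 of 29 for the centromere and kinetochore genes, 2 of 21 for passenger and cohesin genes and 1 of 21 for the anaphase-promoting complex. They were 3 of 19 for entry and exit control, 4 of 23 for general cytokinesis, 3 of 19 for the regulators, 1 of 31 for replication and 0 of 13 for the inhibitors and D cyclins. The falls were also fewer in that fit, with 2 of the passenger and cohesin list, 1 of the anaphase-promoting complex, 1 of entry and exit control and 0 of the other 6 lists, so the falls of Cenpq, Cenpx, E2f6 and Cdkn1c were lost. Without female hypoxia library 1 and female normoxia library 3, where 19.9% of all genes rose and 18.6% fell, 13 motor and spindle genes rose and 2 fell, 11 centromere and kinetochore genes rose and 1 fell, and 11 passenger and cohesin genes rose and 2 fell. In that fit 12 general cytokinesis genes rose and 1 fell, 8 of entry and exit control rose and 4 fell, and 7 regulators rose and 1 fell. Of the replication genes 8 rose and 0 fell, of the inhibitors and D cyclins 5 rose and 1 fell, and of the anaphase-promoting complex 2 rose and 2 fell.

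**Figure D5:**
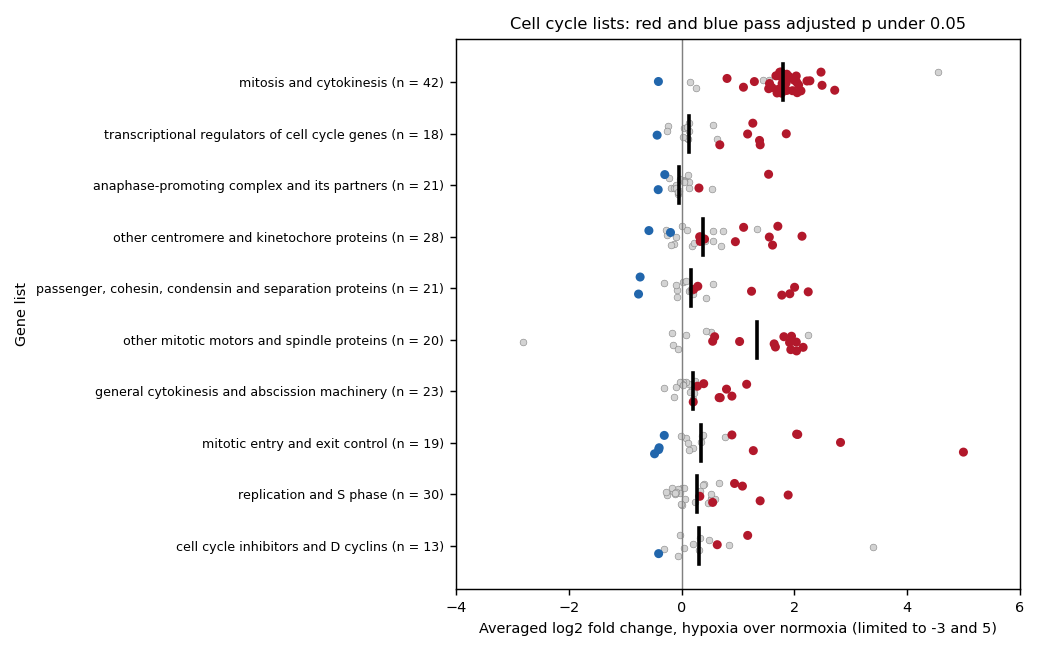
Averaged log2 fold change of hypoxia over normoxia for each tested gene (points, limited to -3 and 5) of the mitosis and cytokinesis genes and 9 related lists, with the median of each list (black bars). Red points rose and blue points fell at an adjusted p under 0.05, and the medians are 1.79 for the mitosis genes, 1.33 for the other motors and spindle proteins and at most 0.37 for the other 8 lists.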

How the data were processed

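Per the labels' protocols, total RNA from frozen ventricles was made into stranded mRNA libraries. Per the submitters' processing notes, FastQC and Salmon were used with the build GRCm39; which versions, annotation and strand setting were used is not given in the sources used here. The deposited table, per the file headers, holds an estimated count, an abundance in TPM and an average transcript length (in bases) per gene and library, and the header records counts not derived from abundance. Deposited TPM values summed to 889905 to 926060 per library. Depth was 14915830 to 19397851 estimated counts, so a count of 0 allows up to 3 counts (0.143 to 0.199 CPM), and such limits cover counting error only.

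Estimated counts were rounded and tested with edgeR 4.0.16 in R 4.3.3: filterByExpr on the 4 groups, TMM factors, a group-means model over all 12 libraries (8 residual degrees of freedom) and two-sided quasi-likelihood tests. Adjusted p-values are Benjamini-Hochberg values over the 13960 genes tested, and a gene passed under 0.05. CPM values are counts over TMM-scaled library sizes, and mean log2 CPM uses a prior count of 2. SE is the log2 fold change over the square root of F. Contrasts were hypoxia minus normoxia in males, in females and averaged, the female minus the male effect, and females minus males at each oxygen level.

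The members and all gene lists (9 pathway lists and 11 marker lists) were chosen with earlier results of these data known, so no list was tested and lists are described by counts and medians. Per-library values are given for 20 members chosen by role and for members that fell, did not pass or had the largest or smallest effect. In pathway lists up to 4 passing genes with the smallest p are named (up to 2 where fewer than 3 passed), with those that fell. Symbols came from GENCODE vM21 (99.3% of the 39210 identifiers), used for names and exon overlaps only since its build differs. Promoters came from RefSeq (GRCm38.p6), and no data are read at their coordinates. Alternatives were DESeq2 1.42.0, limma 3.58.1 (voom, and trend on log2(TPM + 0.1)), RLE factors, length offsets, no filter or a stricter one (at least 1 CPM in at least 6 libraries), removal of mitochondrial and haemoglobin genes, the replicate block, only the compared libraries and libraries left out. No 2 libraries of the same group agreed within sampling noise, and the fits were tested on simulated counts.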

Additional observations from a re-analysis of the deposited data

How the results depend on the processing

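The averaged count of 36 members called was 31 to 37 under the alternatives that keep all libraries (37 by DESeq2, 36 by limma voom, 37 on TPM, 31 with transcript length offsets, 31 of 34 tested with the stricter filter), 24 without male hypoxia libraries 2 and 3, and 34 to 36 with single libraries left out. The female count of 21 became 0 when only the compared libraries were fitted, 12 without male hypoxia libraries 2 and 3, and 6 without those and female normoxia library 3, with a range of 0 to 32 for single libraries left out. The male count of 26 became 0 without male hypoxia libraries 2 and 3, also with female normoxia library 3 left out, with a range of 11 to 31 for single libraries. The number of genes called over the whole table moved as well. In the averaged comparison it was 3896 in the main fit, 2773 with transcript length offsets and 4678 on TPM. For females it was 836 in the main fit and 40 when only the compared libraries were fitted. The cause of these changes was not tested, and the fits without some libraries have fewer samples. The counts for the interaction and both sex contrasts were 0 under every alternative run. Among single members the averaged log2 fold change turned negative for Bub1 without male hypoxia libraries 2 and 3 (-2.16, and -2.42 without female normoxia library 3 too), for Mad2l1 with length offsets (-0.41), and for Cenpf without male hypoxia library 1 (-0.33, in a range up to 0.37 over the single libraries left out), without female normoxia library 3 (-0.08) or without female hypoxia library 1 and female normoxia library 3 (-0.11). Whether the replicate numbers pair the samples was left unsettled. The 18 same-number pairs had low correlations of -0.045 to 0.186, with 1 over 0.1, but 8 of 12 libraries correlated best with their own number. With the replicate block the averaged count was 35, the male count 23 and the female count 16. Low counts limit these genes: 39 of the 42 averaged under 1 TPM in normoxia.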
